A study of Mus musculus with 24 samples.

Results

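Epx, Prg2 and Prg3 are 3 of the 24982 genes counted in eosinophils of the mouse bone marrow. They were chosen by name, as the genes of eosinophil peroxidase and of the major basic proteins, and all 3 passed the filter on low counts. Eosinophils are granulocytes that fill large granules with cationic, cytotoxic proteins while they mature in the marrow. Epx encodes eosinophil peroxidase, a heme enzyme that makes hypohalous acids from hydrogen peroxide. Prg2 encodes the proform of major basic protein 1, which forms the crystalline core of the granule, and Prg3 encodes its homolog, major basic protein 2. The proteins are made early, pass through the endoplasmic reticulum and are then stored, so that a mature eosinophil can hold granule protein long after the messenger RNA has declined.

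The cells were sorted into 4 successive stages of maturation, I to IV, from 2 conditions: IL-33 induced eosinophilia, in which mice received 400 ng of recombinant IL-33 into the peritoneum each day for 7 days, and steady state. IL-33 is an alarm cytokine of injured tissue and causes eosinophils to accumulate. All mice were wild type on a background written as C57BL6; their age is not given in the sources used here. Each of the 8 groups had 3 libraries. Marrow of 3 mice was pooled for a sample, so the spread between libraries is one between pools and not between animals. The design text calls the triplicates biological. Magnetic depletion removed cells with CD45R, CD90.2, NK1.1 or Ly6G on their surface, and the stages were then sorted with antibodies against CD117, CD55, Siglec-F, CD200R3, CD29, Pir-A/B and F4/80. Gene counts per library ranged from 8335138 to 14909453. The share of entries for reads in no feature was 9.19% to 16.6% in IL-33 libraries and 17.8% to 30.5% in steady state libraries, without overlap. In bulk RNA of this kind, fewer cells that express a gene and less RNA of it per cell cannot be told apart.

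The eosinophil label was checked against markers. Siglecf, encoding a surface lectin of eosinophils, averaged between 271 and 710 CPM (CPM are read counts over a common library total, with library sizes scaled by the TMM method, a trimmed mean of log ratios) in the 8 groups, and Il5ra, encoding the IL-5 receptor subunit, between 103 and 332 CPM. Ccr3, encoding the eotaxin receptor, was at 0.298 to 6.66 CPM in steady state stage I and 3.40 to 6.89 CPM in IL-33 stage I. In stage IV it was at 1572 to 2243 CPM in steady state and 1400 to 1646 CPM under IL-33. The summed level of the 7 eosinophil markers, which include Epx and Prg2, was 18576 to 24124 CPM in IL-33 stage IV and 4196 to 7376 CPM in steady state stage IV. Neutrophil markers were also present despite the removal of Ly6G-bearing cells, and were higher in steady state. The summed level of the 8 neutrophil markers was 2624 to 3811 CPM at IL-33 stage III, against 18516 to 22716 CPM at steady state stage III. In stage IV it was 5674 to 9413 CPM under IL-33, against 8941 to 24357 CPM in steady state, and none of the 8 markers was at 0 in any group. The 4 steady state libraries numbered 3 stood apart in 2 of 3 immediate early genes. Their levels of Jun, encoding an AP-1 subunit, were 3331 to 5018 CPM, against 875 to 2142 CPM in the other 20 libraries, and those of Atf3, encoding a stress-induced factor, were 165 to 1063 CPM, against 1.33 to 52.0 CPM. The ranges of Fos, encoding another AP-1 subunit, overlapped, at 3189 to 4468 CPM against 1058 to 3373 CPM.

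Epx lies on chromosome 11 of GRCm38 (mm10) at 87864000 to 87875536 on the minus strand, with 2737 bases of exons. Prg2 lies on chromosome 2 at 84980461 to 84983632 and Prg3 at 84988215 to 84993886, both on the plus strand, so that 4582 bases separate the end of Prg2 from the start of Prg3. Their exons span 838 and 949 bases. The coding sequences of Prg2 and Prg3 were identical at 67.6% of 651 aligned positions. The longest run of bases that their transcripts share is 23 bases long, and no stretch of 50 bases in any of the 3 genes occurred in a transcript of another gene. The shared run, which shows how close the pair comes to sharing reads, is the following, in both coding sequences at bases 268 to 290.
Prg2 and Prg3: tgccccaaggaagaggacacaac
No other gene of GENCODE M21 overlapped any of the 3. RefSeq's annotation of the same build places Gm39868, a long noncoding RNA on the minus strand, at 84983713 to 84991979 across part of Prg3. The library method does not mark the strand, so reads there cannot be told apart. Gm39868 was not among the gene symbols of the files.

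Promoter entries were found for Epx and Prg3 but not for Prg2, so the promoters of those 2 genes are shown. They are the 250 bases before the start site in RefSeq's GRCm38.p6 entries, at chr11:87875537-87875786 on the minus strand and chr2:84987965-84988214 on the plus strand. Capitals mark the motif matches.
Epx: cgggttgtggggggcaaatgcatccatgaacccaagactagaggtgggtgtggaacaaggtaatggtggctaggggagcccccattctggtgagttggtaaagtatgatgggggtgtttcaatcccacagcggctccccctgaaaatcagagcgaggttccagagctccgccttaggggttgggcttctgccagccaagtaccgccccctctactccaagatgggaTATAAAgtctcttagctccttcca
Prg3: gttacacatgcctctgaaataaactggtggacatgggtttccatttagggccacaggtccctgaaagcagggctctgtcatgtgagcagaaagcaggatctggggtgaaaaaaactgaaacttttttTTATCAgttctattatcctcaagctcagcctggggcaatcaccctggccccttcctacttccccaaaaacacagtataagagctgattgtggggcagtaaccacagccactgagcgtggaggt
Motif letters of 4 factors or elements were searched on both strands. The TATA box was searched as TATAAA or TATATA, and the GATA site as either AGATAA or AGATAG, and also as TGATAA or with its last base as G, TGATAG. The C/EBP site was searched as TTGCNNAA and the PU.1 site as AGGAAGT. The Epx window held TATAAA at -24 to -19 from the start site. The Prg3 window held TTATCA, the reverse complement of TGATAA, at -123 to -118. Among 32851 promoters of the same length, 15.6% held a TATA match, 26.5% a GATA match, 9.56% a C/EBP match and 7.69% a PU.1 match, so neither match is rare. The letters searched for C/EBP and PU.1 are in neither window.

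At the start of maturation the 3 genes were among the most abundant messengers of the cell. Levels of different genes are compared here per length, as TPM, the count over the exon length scaled to a common total per library. Prg2 averaged 38975 ± 3799 TPM in IL-33 stage I and 53948 ± 7721 TPM in steady state stage I (SD, n = 3 each), the top rank of 24490 genes in both. Epx averaged 17634 ± 4913 TPM in IL-33 stage I and 17588 ± 2529 TPM in steady state stage I. Prg3 averaged 12256 ± 1507 TPM in IL-33 stage I and 17869 ± 2044 TPM in steady state stage I. Epx and Prg3 took ranks 2 and 3 in both conditions, and their ranges over libraries overlapped in both. Epx lay above Prg3 within each library of IL-33 stage I, narrowly in library 2 (12530 against 12365 TPM). The next gene in both was Ear1, which encodes an eosinophil ribonuclease, with 8237 TPM under IL-33 and 8806 TPM in steady state. Together the 3 genes took 3.36% ± 0.486 of gene counts in IL-33 stage I and 3.86% ± 0.576 in steady state stage I (SD, n = 3 each).

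The ranks at the end of maturation differed between the conditions. Under IL-33, Prg2 still ranked at the top in stage IV with 29571 ± 2473 TPM, Epx ranked 12th with 5002 ± 950 TPM and Prg3 ranked 15th with 4654 ± 664 TPM (SD, n = 3). In steady state stage IV, Prg2 was the 92nd gene with 1396 ± 527 TPM, Prg3 the 1237th with 141 ± 67.2 TPM and Epx the 5045th with 20.3 ± 1.53 TPM (SD, n = 3). The share of gene counts taken by the 3 genes in stage IV was 1.58% ± 0.179 under IL-33 and 0.0501% ± 0.0207 in steady state. With coding length in place of exon length, a choice made after the data were seen, Prg2 remained the highest of the 3 in all 8 groups, at 11503 ± 1031 TPM in IL-33 stage IV and 531 ± 198 TPM in steady state stage IV. The order of the means of Epx and Prg3 in IL-33 stage IV turned with that choice, to 1981 ± 390 TPM for Epx and 2058 ± 292 TPM for Prg3.

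Under IL-33 Epx fell in stage IV only, and Prg2 did not pass the test in any step. Epx had 15008, 14137 and 20587 CPM at IL-33 stage I, 15881, 17659 and 15407 CPM at stage II, 11551, 15413 and 14372 CPM at stage III, and 5997, 6901 and 4504 CPM at stage IV. Only the stage IV libraries lay below all others. The steps to stages II and III gave log2 fold changes of -0.02 ± 0.26 and -0.24 ± 0.26 (SE, edgeR adjusted p = 1 for both), in steps where 0.0942% and 0.0863% of the 12743 genes tested were called. Stage IV against III gave -1.25 ± 0.26 (edgeR adjusted p = 0.000859), a 2.38-fold fall, where 29.1% of genes were called in either direction.

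Prg2 was nearly level throughout the IL-33 series. It had 9300, 12801 and 12237 CPM at stage I, 11248, 11591 and 10852 CPM at stage II, 10645, 11302 and 11572 CPM at stage III, and 10102, 11902 and 9495 CPM at stage IV, with all neighbouring stages overlapping. The log2 fold change of stage IV over III was -0.09 ± 0.27 (SE, edgeR adjusted p = 0.84), with a 95% interval of -0.65 to 0.47, and that of IV over I was -0.12 ± 0.27 (edgeR adjusted p = 0.737), where 22.9% of genes were called lower.

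Prg3 had 3085, 4837 and 4381 CPM at IL-33 stage I, 3484, 3756 and 3840 CPM at stage II, 3078, 3631 and 3673 CPM at stage III, and 1616, 2295 and 1721 CPM at stage IV. The stage IV libraries lay below all others, as those of 54.9% of genes lay apart from stage III in one direction or the other. The log2 fold change of stage IV over III was -0.88 ± 0.34 (SE) and narrowly missed the threshold (edgeR adjusted p = 0.0546). It passed with library totals (-1.13, edgeR adjusted p = 0.00754) and in DESeq2 (-0.87, adjusted p = 0.0391), and also without steady state library 2 of stage III (-0.89) or IV (-0.83) or library 3 of stage III (-0.89) or IV (-0.89), with edgeR adjusted p between 0.0226 and 0.0388. Against stage I the fall was 2.18-fold (log2 fold change -1.13 ± 0.34, edgeR adjusted p = 0.00994).

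In steady state the declines began in stage III and were larger, and Epx fell furthest. The 3 libraries of each stage held 13883, 15953 and 12459 CPM at stage I, 14138, 12763 and 9693 CPM at stage II, 3145, 1477 and 3485 CPM at stage III, and 20.2, 18.6 and 26.5 CPM at stage IV. Stages I and II overlapped, stage III lay below both in all 3 libraries, and stage IV lay more than an order of magnitude below stage III. The log2 fold change of stage II over I was -0.21 ± 0.26 (SE, edgeR adjusted p = 0.725), in a step where 4.87% of genes were called. Between stages III and II it was -2.17 ± 0.27 (edgeR adjusted p = 2.66e-06), a 4.51-fold fall, in a step where 17.4% of genes were called lower and the groups of 36.7% did not overlap. Epx fell again in stage IV against III, with a log2 fold change of -6.96 ± 0.33 (edgeR adjusted p = 3.15e-12), 124-fold, where 5.67% of genes were called lower and the groups of 23.4% did not overlap. Only 21 of the 12743 genes tested had a more negative log2 fold change in that step. Its level in stage IV rested on between 193 and 233 reads per library.

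Prg2 kept most of its level until stage III and then fell. In the steady state libraries it had 15153, 13698 and 10992 CPM at stage I, 17272, 13816 and 11831 CPM at stage II, 12199, 7417 and 12134 CPM at stage III, and 492, 234 and 687 CPM at stage IV. Stages I, II and III overlapped, and only stage IV lay apart. Stage III against II gave a log2 fold change of -0.43 ± 0.27 (SE, edgeR adjusted p = 0.226), with a 95% interval of -1.0 to 0.13. This step was called with library totals in place of TMM (-0.79, edgeR adjusted p = 0.0147) and without the 4 libraries numbered 3 (-0.74, edgeR adjusted p = 0.0416). Stage IV against III gave -4.49 ± 0.31 (edgeR adjusted p = 4.46e-09), a 22.5-fold fall.

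Prg3 lay between the other two. Its levels were 5562, 5095 and 4283 CPM at steady state stage I, 5450, 4364 and 3524 CPM at stage II, 1805, 870 and 2504 CPM at stage III, and 46.7, 26.4 and 89.6 CPM at stage IV. Stages I and II overlapped, whereas stages III and IV each lay below the stage before. Stage III against II gave a log2 fold change of -1.36 ± 0.34 (SE, edgeR adjusted p = 0.00373), a 2.58-fold fall. Without the 4 libraries numbered 3 this value was -1.95. Stage IV against III gave -5.00 ± 0.40 (edgeR adjusted p = 2.94e-08), a 31.9-fold fall. Over the whole course, where 22.7% of genes were called lower between stages IV and I, the falls were 649-fold for Epx, 92.0-fold for Prg3 and 28.2-fold for Prg2. Without the 4 libraries numbered 3, the log2 fold change of Prg3 over that course was -7.16, against -6.52 with them.

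**Figure D1:**
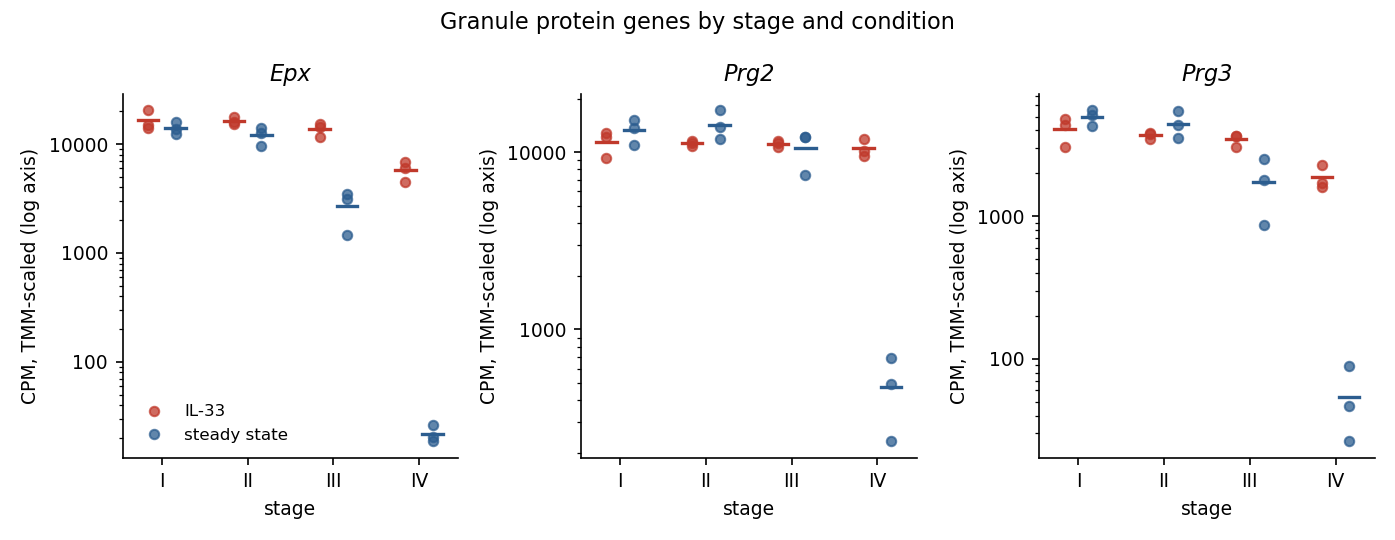
Level of Epx, Prg2 and Prg3 in every library (CPM scaled by TMM, log axis) by stage, with IL-33 in red and steady state in blue; points are libraries and bars are means of 3. The IL-33 and steady state points lie close together in stages I and II and are farthest apart in stage IV, where Epx has 4504 to 6901 CPM under IL-33 and 18.6 to 26.5 CPM in steady state.

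The level remaining, as a percent of the stage I mean of the same condition, orders the genes. Under IL-33, 35.0% ± 7.30 of Epx, 45.8% ± 8.91 of Prg3 and 91.7% ± 10.9 of Prg2 remained in stage IV (SD, n = 3). The ranges of Epx and Prg3 in IL-33 stage IV overlapped, whereas Prg2 lay above both in every library. Set against the stage I library of the same number, the order from least to most remaining was Epx, Prg3, Prg2 for numbers 1 and 3. For number 2, Prg3 kept 47.4% and Epx 48.8%. In steady state stage III, 19.2% ± 7.63 of Epx, 34.7% ± 16.5 of Prg3 and 79.7% ± 20.6 of Prg2 remained. In steady state stage IV the values were 0.154% ± 0.0295 of Epx, 1.09% ± 0.647 of Prg3 and 3.55% ± 1.71 of Prg2. By number, the order was again Epx, Prg3, Prg2 for all 3 numbers in stage III and in stage IV. Over libraries, Prg3 (17.5% to 50.3%) overlapped Epx (10.5% to 24.7%) in stage III, and Prg2 (1.76% to 5.17%) overlapped Prg3 (0.531% to 1.80%) in stage IV.

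**Figure D2:**
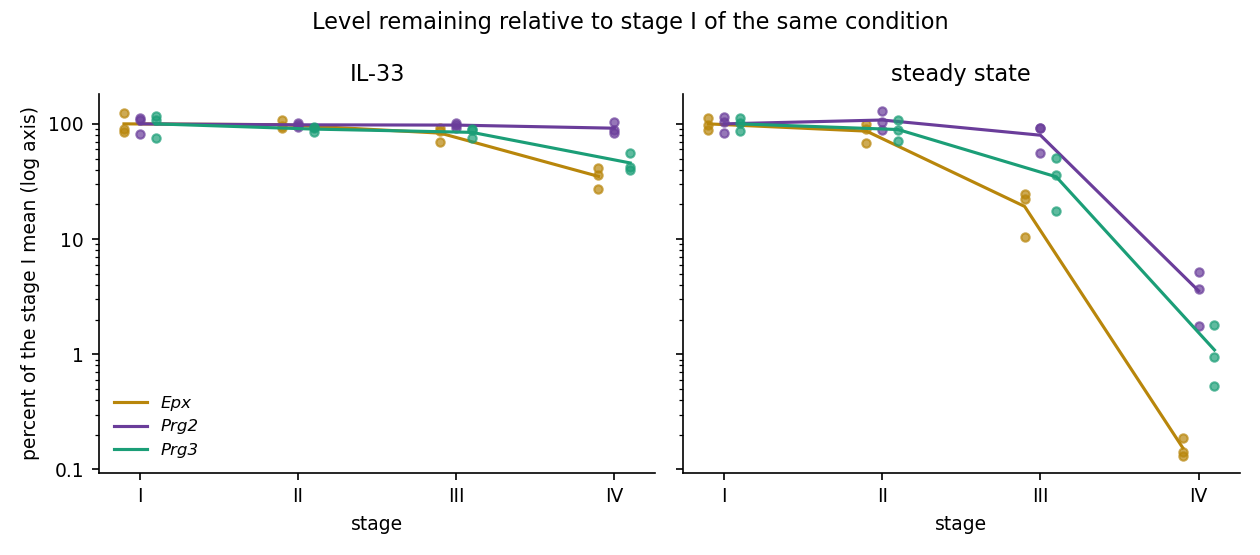
Percent of the stage I mean of the same condition (log axis) by stage, under IL-33 (left) and in steady state (right); points are libraries and lines join the means of 3 libraries. In steady state stages III and IV the means run Prg2, Prg3, Epx from high to low (79.7, 34.7 and 19.2% in stage III), and some library points overlap.

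Ratios between the genes within a library do not depend on library scaling. Reads per kb of Prg2 were 2.31 ± 0.564, 2.25 ± 0.0945, 2.68 ± 0.310 and 6.01 ± 0.764 times those of Epx in IL-33 stages I, II, III and IV (SD, n = 3 each). In steady state the same ratio was 3.08 ± 0.419, 3.84 ± 0.261, 13.5 ± 2.61 and 68.5 ± 23.8. The ratio thus rose most in steady state, and the libraries of stages III and IV did not overlap with those of the stage before in either condition. The stage steps were tested with the labels of the 2 stages exchanged within each condition, in an exact two-sided permutation test of 400 arrangements over 12 libraries, adjusted over 9 tests. The smallest p this test gives is 0.005. The mean log2 change of the ratio of Prg2 to Epx was 1.02 from stage II to III (exact p = 0.005, adjusted p = 0.015) and 1.73 from stage III to IV (exact p = 0.005, adjusted p = 0.015). From stage I to II it was 0.16 (exact permutation p = 0.23, adjusted p = 0.259), and 0.25 without IL-33 library 2 of stage I (exact permutation p = 0.0150).

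Prg3 also rose relative to Epx, by less. Their ratio of reads per kb was 0.731 ± 0.222, 0.655 ± 0.0561, 0.728 ± 0.0452 and 0.946 ± 0.163 in IL-33 stages I to IV and 1.02 ± 0.120, 1.05 ± 0.0628, 1.81 ± 0.229 and 6.84 ± 2.83 in steady state stages I to IV (SD, n = 3 each). Steady state stages III and IV each lay above the stage before, and under IL-33 only stage IV lay apart from the stage before. The mean log2 change was 0.47 from stage II to III (exact permutation p = 0.01, adjusted p = 0.015) and 1.10 from III to IV (exact permutation p = 0.005, adjusted p = 0.015), and was -0.04 from I to II (exact permutation p = 0.84).

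The paralogs parted as well. Reads per kb of Prg2 were 3.19 ± 0.210, 3.45 ± 0.231, 3.67 ± 0.215 and 6.40 ± 0.616 times those of Prg3 in IL-33 stages I to IV and 3.01 ± 0.0937, 3.66 ± 0.124, 7.60 ± 2.08 and 10.2 ± 1.64 in steady state stages I to IV (SD, n = 3 each). In steady state the separation came between stages I and III, and stages III and IV overlapped, whereas under IL-33 the libraries of stage IV alone lay apart from the stage before. The mean log2 change was 0.20 from stage I to II (exact permutation p = 0.01, adjusted p = 0.015). It was 0.55 from II to III (exact permutation p = 0.02, adjusted p = 0.0257), and 0.68 without the 4 steady state libraries numbered 3, where it no longer passed (exact permutation p = 0.0667). The call was also lost without steady state library 1 or 2 of stage II (0.55 in each case, exact permutation p = 0.05 for both). From III to IV it was 0.63 (exact permutation p = 0.01, adjusted p = 0.015).

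**Figure D3:**
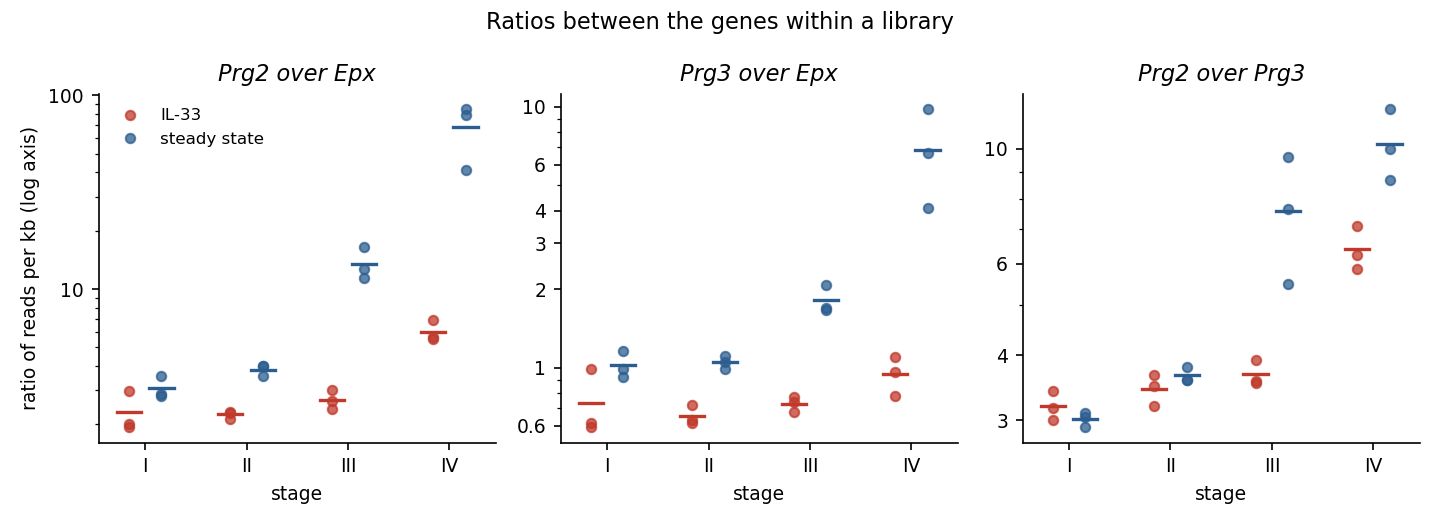
Ratio of reads per kb between pairs of the genes in each library (log axis) by stage, with IL-33 in red and steady state in blue; points are libraries and bars are means of 3. The ratio of Prg2 to Epx reaches 41.1 to 84.7 in steady state stage IV and 5.50 to 6.88 in IL-33 stage IV.

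IL-33 and steady state were then compared within each stage. In stages I and II none of the 3 genes passed the test, where 4.06% and 8.03% of genes were called. Epx differed by a log2 fold change of 0.23 ± 0.26 in stage I (SE, edgeR adjusted p = 0.676, 95% interval -0.30 to 0.77) and of 0.42 ± 0.26 in stage II (edgeR adjusted p = 0.341, 95% interval -0.11 to 0.95). In stage III, where 18.5% of genes were called higher and the groups of 50.0% did not overlap, Epx had 13779 ± 1998 CPM under IL-33 and 2702 ± 1075 CPM in steady state (SD, n = 3 each), a log2 fold change of 2.35 ± 0.27 (SE, edgeR adjusted p = 1.15e-06). Prg3 had 3461 ± 332 CPM under IL-33 and 1726 ± 820 CPM in steady state, a 2.00-fold difference (log2 fold change 1.00 ± 0.34, edgeR adjusted p = 0.0266). The Prg3 call was lost without steady state library 2 of stage III (0.69, edgeR adjusted p = 0.137), and also without library 1 (1.04, edgeR adjusted p = 0.0526) or without IL-33 library 2 or 3 (0.97 and 0.96, edgeR adjusted p = 0.0693 and 0.0665). Prg2 had 11173 ± 477 CPM under IL-33 and 10584 ± 2742 CPM in steady state, and the groups overlapped (log2 fold change 0.08 ± 0.27, edgeR adjusted p = 0.855, 95% interval -0.48 to 0.64).

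In stage IV all 3 genes were higher under IL-33, where 7.48% of genes were called higher. Epx had 5801 ± 1210 CPM under IL-33 and 21.8 ± 4.17 CPM in steady state (SD, n = 3 each), 267-fold (log2 fold change 8.06 ± 0.35, SE, edgeR adjusted p = 3.58e-13). Only 35 of the genes tested had a larger log2 fold change. Prg3 had 1877 ± 365 CPM under IL-33 and 54.2 ± 32.2 CPM in steady state, 34.7-fold (log2 fold change 5.12 ± 0.40, edgeR adjusted p = 1.35e-08). Prg2 had 10500 ± 1252 CPM under IL-33 and 471 ± 227 CPM in steady state, 22.3-fold (log2 fold change 4.48 ± 0.31, edgeR adjusted p = 1.87e-09). In each gene the lowest IL-33 library lay above the highest steady state library, as one group lay wholly above or below the other in 31.4% of genes. Averaged over the 4 stages, where 21.4% of genes were called higher, the log2 fold change was 2.77 ± 0.14 for Epx, 1.39 ± 0.17 for Prg3 and 1.00 ± 0.14 for Prg2 (SE, edgeR adjusted p = 9.21e-13, 1.57e-06 and 6.06e-06).

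**Figure D4:**
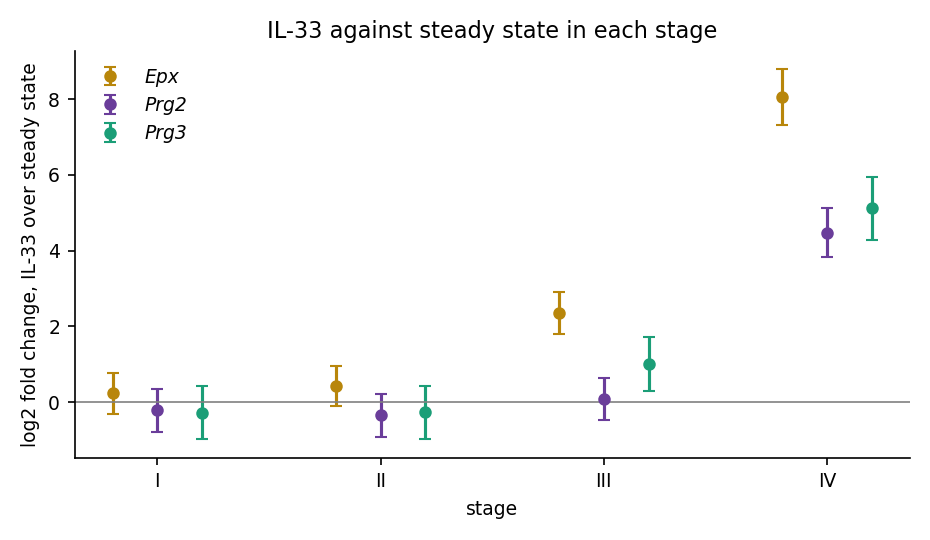
Log2 fold change of IL-33 over steady state by stage for Epx, Prg2 and Prg3, with 95% confidence intervals from the edgeR fit (3 libraries per group). All intervals include 0 in stages I and II, those of Epx and Prg3 lie above 0 in stage III, and all lie above 0 in stage IV, at 8.06, 4.48 and 5.12 for Epx, Prg2 and Prg3.

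Whether a step differed between conditions was tested as the IL-33 step minus the steady state step. For stage II over I none of the 3 genes passed, and edgeR called 0% of all genes, with 967 at an unadjusted p under 0.05, 103 called by DESeq2 and 3 by limma-voom. For stage III over II, with 4.49% of genes called higher, Epx differed by 1.93 ± 0.37 (SE, log2, edgeR adjusted p = 0.00238). Prg3 differed by 1.27 ± 0.48 and did not pass (edgeR adjusted p = 0.115), although it did without steady state library 3 of stage III (1.64, edgeR adjusted p = 0.0391), without all 4 libraries numbered 3 (1.88, edgeR adjusted p = 0.00387) and with library totals (1.61, edgeR adjusted p = 0.022). Prg2 differed by 0.43 ± 0.38 (edgeR adjusted p = 0.57). For stage IV over I, where 2.06% of genes were called higher, the differences were 7.83 ± 0.41 for Epx, 4.69 ± 0.40 for Prg2 and 5.40 ± 0.51 for Prg3 (6.06 without the 4 libraries numbered 3). For stage IV over III, with 8.44% of genes called higher, the differences were 5.71 ± 0.39 for Epx, 4.40 ± 0.40 for Prg2 and 4.11 ± 0.50 for Prg3 (edgeR adjusted p = 5.89e-09, 3.05e-07 and 7.54e-06).

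The ratios between the genes were also set side by side within each stage. With 3 libraries against 3 an exact permutation test cannot go below p = 0.10, and none of the 12 comparisons passed after adjustment (lowest adjusted p = 0.15). The log2 ratio of Prg2 to Epx was lower under IL-33 than in steady state by 0.44 ± 0.22 in stage I and by 0.77 ± 0.07 in stage II (SE), and the stage II libraries did not overlap. In stages III and IV it was lower by 2.32 ± 0.18 and 3.45 ± 0.35, again without overlap. The log2 ratio of Prg2 to Prg3 differed by 0.08 ± 0.06 in stage I and -0.09 ± 0.06 in stage II, with overlap, and by -1.01 ± 0.24 in stage III and -0.67 ± 0.15 in stage IV, without overlap.

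Epx was first called lower in the step to stage III in steady state and in the step to stage IV under IL-33. Prg2 passed in no step under IL-33. IL-33 stages III and IV were therefore also set against the steady state stage before, a comparison in which stage and condition differ together. For IL-33 stage III against steady state stage II, where 8.36% of genes were called, none of the 3 genes passed, with log2 fold changes of 0.18 ± 0.26 for Epx, -0.36 ± 0.27 for Prg2 and -0.36 ± 0.34 for Prg3 (SE, edgeR adjusted p = 0.738, 0.468 and 0.569). For IL-33 stage IV against steady state stage III, where 6.30% were called higher, Epx was higher by 1.10 ± 0.26 (edgeR adjusted p = 0.00748). In a fit of the compared groups alone this call was lost (1.09, edgeR adjusted p = 0.0572). Prg2 differed by -0.01 ± 0.27 and Prg3 by 0.12 ± 0.34 (edgeR adjusted p = 0.997 and 0.876). Their 95% intervals were -0.57 to 0.55 for Prg2 and -0.58 to 0.82 for Prg3, so differences of up to about those sizes are not excluded.

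Genes of the eosinophil surface did not pass the test in the step to steady state stage IV in which the granule genes fell. Siglecf had 464 ± 140 CPM at stage IV and 479 ± 196 CPM at stage III (SD, n = 3 each; log2 fold change -0.05 ± 0.35, SE, edgeR adjusted p = 0.972). Il5ra had 245 ± 28.5 CPM at stage IV and 332 ± 19.3 CPM at stage III (edgeR adjusted p = 0.417), and Ccr3, encoding the eotaxin receptor, had 1991 ± 365 CPM at stage IV and 660 ± 327 CPM at stage III (edgeR adjusted p = 0.0754). Ccr3 rose over the whole course, by 9.32 ± 0.79 on the log2 scale in stage IV against I (edgeR adjusted p = 6.31e-09). The list of 7 eosinophil markers includes Epx and Prg2 themselves. Of the others, only Alox15, which encodes a lipoxygenase, fell in stage IV against III (log2 fold change -1.91 ± 0.29, edgeR adjusted p = 0.000144). In that step 5.67% of genes were called lower, and none of the 7 was called higher. The summed neutrophil markers ranged from 8941 to 24357 CPM at stage IV and from 18516 to 22716 CPM at stage III, and edgeR called 0 of the 8 in that step, with 4 at an unadjusted p under 0.05, 0 called by DESeq2 and 1 by limma-voom (median log2 fold change -0.55, against 0.02 over all genes tested).

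Between conditions the neutrophil markers differed as well, from stage II on. In stage II, where none of the 3 granule genes passed, 6 of the 8 were lower under IL-33 (median log2 fold change -3.23). In that stage 8.03% of genes were called in either direction. All 8 were lower under IL-33 in stage III (median log2 fold change -4.06), where 14.9% of genes were called lower, and 2 of 8 were lower in stage IV, where 4.68% were. Retnlg, encoding a resistin-like protein of neutrophils, had 460 ± 146 CPM at IL-33 stage III and 5455 ± 862 CPM at steady state stage III (SD, n = 3 each), and 4597 ± 263 CPM under IL-33 and 6316 ± 1585 CPM in steady state in stage IV. Their part in the differences of the granule genes in stages III and IV was not tested, nor was that of the share of reads in no feature, which was 9.19% to 16.6% under IL-33 and 18.8% to 30.5% in steady state in these stages. The markers of basophils and mast cells were higher under IL-33, with summed levels of 2293 to 2431 CPM at IL-33 stage III and 338 to 505 CPM at steady state stage III, and 1204 to 1838 CPM under IL-33 and 33.2 to 672 CPM in steady state in stage IV. Of these 8 markers 7 were tested, and 5 were higher and 1 lower under IL-33 in each of the 2 stages. Over all genes tested, 18.5% were called higher in stage III and 7.48% in stage IV. Tpsb2, a mast cell tryptase gene, was at 0 in all 8 groups and Cma1, a mast cell chymase gene, at 0 in steady state stages I to III. The 8 monocyte and macrophage markers summed to 1188 to 1423 CPM at IL-33 stage III and 1896 to 2526 CPM at steady state stage III, and to 2851 to 3105 CPM under IL-33 and 946 to 1098 CPM in steady state in stage IV, where 1 passed as higher and 2 as lower. The part of these markers in the result was not tested either.

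Other genes of the granule were read from lists chosen with earlier results of these data known. The eosinophil ribonucleases, cationic proteins stored in the same granules, had 5 tested members of 10. Between steady state stages III and II edgeR, DESeq2 and limma-voom called 0 of the 5, with 0 at an unadjusted edgeR p under 0.05 (median log2 fold change 0.39, against 0.00 over all genes tested), the step in which Epx and Prg3 fell. In stage IV against III, 4 of the 5 fell, with Ear6 at -5.02 ± 0.37, Ear10 at -3.87 ± 0.90, Ear2 at -3.65 ± 0.45 and Ear1 at -3.51 ± 0.38 (SE, log2, edgeR adjusted p = 8.23e-09, 0.00787, 1.32e-05 and 2.19e-06). Rnase2a was the fifth (0.69 ± 1.83, edgeR adjusted p = 0.871). In that step 5.67% of all genes tested were called lower. Under IL-33, the same 3 tools called 0 of the 5 in stage IV against III, with 0 at an unadjusted edgeR p under 0.05. In that IL-33 step edgeR called 29.1% of all genes tested in either direction. The same 4 genes were higher under IL-33 than in steady state in stage IV, with Ear6 at 270 ± 22.6 CPM and 9.31 ± 5.81 CPM (SD, n = 3 each). Over all genes tested, 7.48% were called higher under IL-33 in stage IV. Ear genes have near-identical copies between which reads can be split, so their values are uncertain.

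Of the genes that package granules, 17 of 18 were tested, and 7 fell in steady state stage IV against III, where 5.67% of genes were called lower, led by the lysosomal membrane genes Lamp2 (log2 fold change -1.32 ± 0.22, SE, edgeR adjusted p = 0.000512) and Cd63 (-1.29 ± 0.22, edgeR adjusted p = 0.000662). In stage III against II, where 17.2% of genes were called higher, 6 rose and 1 fell, with Ctsd, encoding the protease cathepsin D, higher by 1.75 ± 0.20 (edgeR adjusted p = 1.5e-06) and Serpinb1a, encoding a protease inhibitor, lower at -1.96 ± 0.30 (edgeR adjusted p = 2.72e-05). Under IL-33 against steady state, 1 was higher and 5 lower in stage III, and 4 were higher and 1 lower in stage IV. Over all genes tested, 18.5% were called higher and 14.9% lower in stage III, and 7.48% higher and 4.68% lower in stage IV. Lyst, encoding a regulator of lysosome size, was lower in stages III and IV, at -2.76 ± 0.36 and -1.31 ± 0.34, and Ctsd in stage III, at -1.55 ± 0.20 (SE, log2). Cst7, encoding a cystatin that inhibits granule proteases, was higher in both late stages, by 1.21 ± 0.28 in stage III and 2.05 ± 0.28 in stage IV (edgeR adjusted p = 0.00167 and 3.06e-05).

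Eosinophil peroxidase needs heme, and 12 genes of heme synthesis and transport were tested. In steady state stage III against II, 17.4% of all genes tested were called lower. Those of the 12 that fell in that step included Abcb10 (log2 fold change -2.61 ± 0.33, SE), Cpox (-2.48 ± 0.51), Fech (-1.31 ± 0.21) and Alad (-0.97 ± 0.35), with edgeR adjusted p between 4.04e-06 and 0.0361. Alas1, encoding the rate-limiting enzyme of heme synthesis outside red cells, was not among them. It was the only one of the 12 to fall in steady state stage IV against III, where 5.67% of genes were called lower. Its level was 204 ± 47.8 CPM at stage IV and 933 ± 285 CPM at stage III (SD, n = 3 each), a log2 fold change of -2.19 ± 0.23 (edgeR adjusted p = 1.54e-06). Under IL-33, 6 of the 12 fell and 1 rose in stage IV against III, where 29.1% of genes were called in either direction. Alas1 did not pass in that IL-33 step (-0.41 ± 0.22, edgeR adjusted p = 0.174). In stage IV, Alas1 had 789 ± 72.2 CPM under IL-33 and 204 ± 47.8 CPM in steady state (log2 fold change 1.95 ± 0.23, edgeR adjusted p = 3.59e-06). Of the other heme peroxidases, Mpo was tested. Mpo encodes myeloperoxidase and lies within 100 kb of Epx. It fell in steady state stage III against II (-4.24 ± 0.64, edgeR adjusted p = 2.71e-05) but did not pass in stage IV against III (0.79 ± 0.57, edgeR adjusted p = 0.415), where Epx fell most.

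In steady state the secretory machinery moved mainly in the step to stage III, in which Epx and Prg3 also fell. Under IL-33 it moved in the step to stage IV, in which Epx fell. Of 26 genes of protein folding and translocation in the endoplasmic reticulum, 17 fell and 1 rose in steady state stage III against II, where 17.4% of genes were called lower (median log2 fold change -1.05, against 0.00 over all genes tested). Calr, encoding the chaperone calreticulin, changed by -3.02 ± 0.38 and Canx, encoding calnexin, by -1.44 ± 0.19 (SE, edgeR adjusted p = 3.74e-06 and 6.57e-06). In steady state stage IV against III 4 of the 26 fell and 0 rose, where 5.67% of genes were called lower (median log2 fold change -0.29). Without the 4 libraries numbered 3, 1 fell in that step. Under IL-33, 20 of the 26 fell and 1 rose in stage IV against III, where 29.1% of genes were called in either direction, while edgeR, DESeq2 and limma-voom called 0 in stage III against II, with 0 at an unadjusted edgeR p under 0.05. In stage III, 19 of the 26 were higher and 1 lower under IL-33 than in steady state (median log2 fold change 1.56), where 18.5% of genes were called higher, and in stage IV 7 were higher and 1 lower, where 7.48% were called higher.

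In steady state stage III against II, 17.2% of genes were called higher and 17.4% lower. Among 19 lineage transcription factors, 10 rose and 6 fell in that step. Xbp1, which drives expansion of the secretory apparatus and is needed for eosinophil development in mice, was among those that fell. It had 124 ± 23.7 CPM at stage III and 416 ± 58.2 CPM at stage II (SD, n = 3 each; log2 fold change -1.75 ± 0.23, SE, edgeR adjusted p = 6.26e-06). It did not pass in stage IV against III in either condition (log2 fold change 0.09 ± 0.22 under IL-33 and 0.02 ± 0.23 in steady state, edgeR adjusted p = 0.796 and 0.99). In stage IV it had 605 ± 186 CPM under IL-33 and 125 ± 23.5 CPM in steady state (log2 fold change 2.27 ± 0.24, edgeR adjusted p = 7.58e-07). Gata2, encoding a factor of the eosinophil, basophil and mast cell lineages, had 704 ± 78.2 CPM at IL-33 stage III and 21.6 ± 8.78 CPM at steady state stage III (log2 fold change 5.02 ± 0.40, edgeR adjusted p = 2.57e-08), and 579 ± 140 CPM under IL-33 and 8.81 ± 1.72 CPM in steady state in stage IV. Gata1 and Cebpe were named after their values were seen because both factors are known to act on eosinophil granule genes. In steady state stage III against II both rose, Gata1 by 1.22 ± 0.30 and Cebpe by 0.82 ± 0.29 (log2, edgeR adjusted p = 0.00345 and 0.0302). In stage IV against III neither passed (-0.50 ± 0.30 and -0.45 ± 0.29, edgeR adjusted p = 0.31 and 0.353). Between conditions in stage IV, Cebpe had 910 ± 81.8 CPM under IL-33 and 461 ± 172 CPM in steady state (SD, n = 3 each). Its groups did not overlap, as those of 31.4% of genes did not. Gata1 had 293 ± 50.5 CPM under IL-33 and 226 ± 122 CPM in steady state, with overlap.

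**Figure D5:**
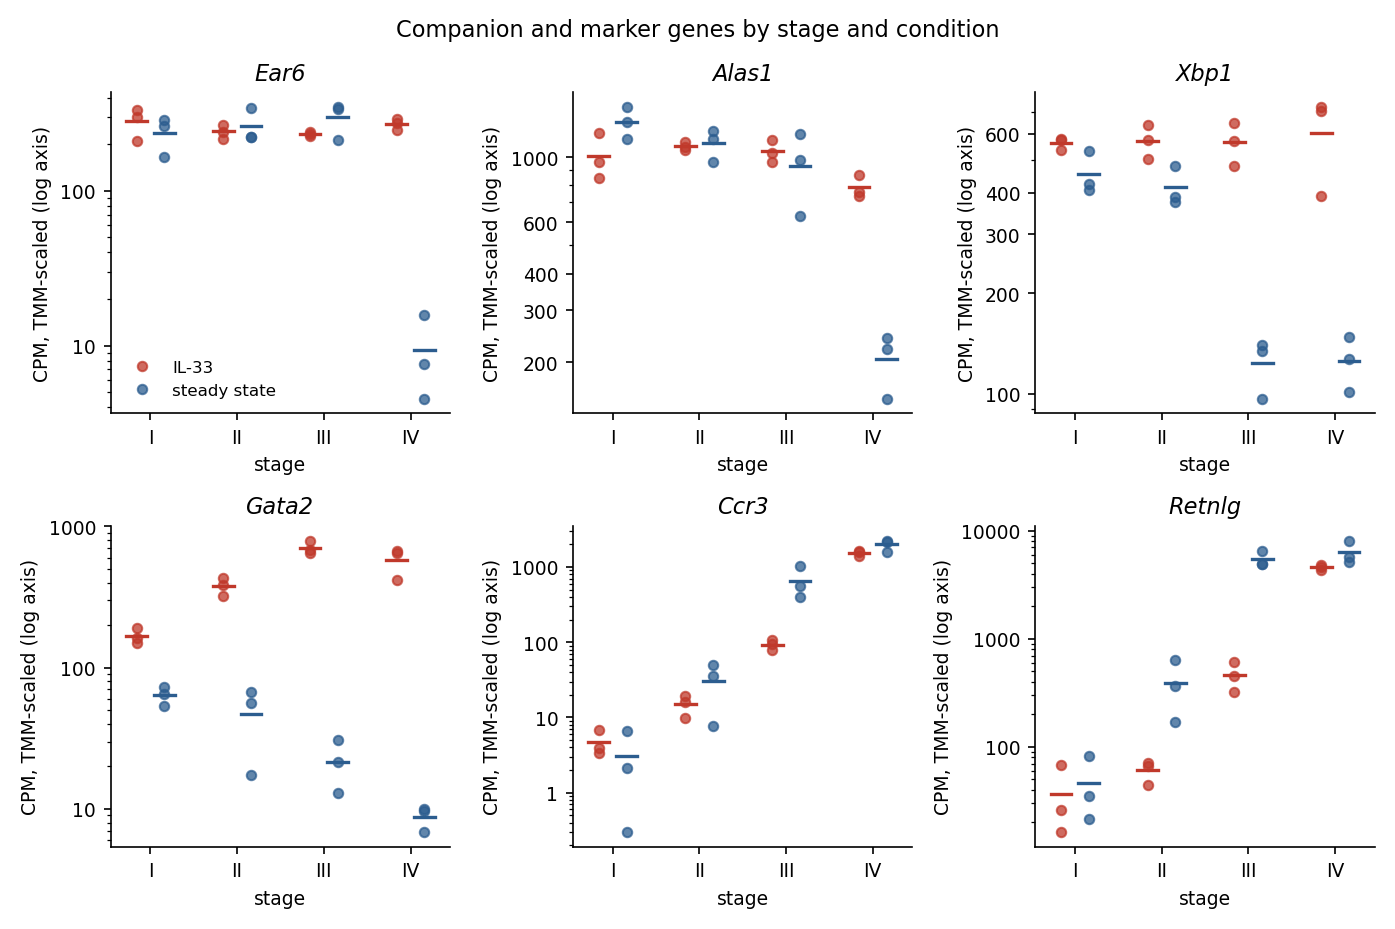
Level of 6 companion and marker genes in every library (CPM scaled by TMM, log axis) by stage, with IL-33 in red and steady state in blue; points are libraries and bars are means of 3. Ear6 and Alas1 are lower in steady state stage IV than in stage III, Xbp1 is lower from steady state stage III on, Gata2 is higher under IL-33 in all 4 stages, and Ccr3 and Retnlg are at their highest mean in stage IV in both conditions.

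The genes most like the members over the 24 libraries were sought among 8362 candidates by Pearson correlation of log2 CPM, given as a description. The libraries share stages and conditions, and the 3 libraries of steady state stage IV were the lowest for each member. For Epx the closest were Prg3 (0.985), Prg2 (0.959), Hdc (0.954), Alas1 (0.949) and Cpne2 (0.943). Hdc encodes histidine decarboxylase, which makes histamine. For Prg2 they were Ear6 (0.988), Prg3 (0.978), Epx (0.959), Hyal3 (0.939) and Alas1 (0.937), and for Prg3 they were Epx (0.985), Prg2 (0.978), Alas1 (0.951), Ear6 (0.947) and Rnase12 (0.946). By Spearman rank, Prg2 was only the 2701st gene for Epx (rho 0.484) and Prg3 the 972nd (rho 0.770), while Hdc was the 121st (rho 0.884). For Prg2, Prg3 was the 2nd (rho 0.803) and Ear6 the 13th (rho 0.701). For Prg3, Ear6 was the 2616th (rho 0.417) and Rnase12 the 57th (rho 0.852). Hdc had 820 ± 189 CPM in IL-33 stage IV and 111 ± 19 CPM in steady state stage IV, against 498 ± 97.2 CPM at steady state stage III (SD, n = 3 each).

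Genes near the members were examined within 100 kb. Around Epx 3 of 7 counted neighbours passed the filter, namely Tspoap1, Mpo and Mks1, and around Prg2 and Prg3 4 of 6 did, namely Slc43a3, P2rx3, Ssrp1 and Tnks1bp1. P2rx3, encoding an ATP-gated channel, was the one on chromosome 2 that fell in both late steady state steps. It had 52.1 ± 13.8, 46.9 ± 9.51, 39.5 ± 4.51 and 7.05 ± 0.982 CPM in IL-33 stages I to IV (SD, n = 3 each). It had 115 ± 22.8, 71.4 ± 14, 11.8 ± 4.89 and 1.28 ± 1.26 CPM in steady state stages I to IV, with log2 fold changes of -2.60 ± 0.46 in stage III against II and -3.29 ± 0.52 in stage IV against III (SE, edgeR adjusted p = 0.000141 and 0.000257). RefSeq's models of Prg3 and P2rx3 overlap at their ends, so reads there cannot be told apart. Slc43a3, upstream of Prg2 and encoding a purine transporter, fell in stage III against II (-3.14 ± 0.42, edgeR adjusted p = 6.61e-06), and the step to stage IV gave -0.87 ± 0.40 (edgeR adjusted p = 0.178). Under IL-33 it fell to 8.62 ± 2.92 CPM at stage IV, against 200 ± 16.8 CPM at stage III, while Prg2 beside it did not pass the test. Ssrp1 also fell in steady state stage III against II (-2.33 ± 0.31, edgeR adjusted p = 6.32e-06), and the step to stage IV gave 0.40 ± 0.30 (edgeR adjusted p = 0.433). Over all genes tested, 17.4% were called lower in steady state stage III against II and 5.67% in stage IV against III. Around Epx, Tspoap1 fell in steady state stage IV against III (-1.90 ± 0.53, edgeR adjusted p = 0.0259) and was higher under IL-33 in stages III and IV (1.73 ± 0.52 and 1.91 ± 0.53, edgeR adjusted p = 0.0126 and 0.0204), at levels of 5.49 ± 3.65 to 68.6 ± 29.1 CPM. Mks1 fell in steady state stage III against II (-1.93 ± 0.54, edgeR adjusted p = 0.00768) and in IL-33 stage IV against III (-3.14 ± 0.56, edgeR adjusted p = 0.000181). It did not pass in steady state stage IV against III (-0.08 ± 0.54, edgeR adjusted p = 0.961). Under IL-33 it was higher in stage III (2.47 ± 0.54, edgeR adjusted p = 0.00128) but did not pass in stage IV (-0.59 ± 0.54, edgeR adjusted p = 0.522).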

How the data were processed

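Total RNA of sorted bone marrow eosinophils was made into libraries with SMART-Seq v4 (17 cycles) and Nextera XT, per the labels' protocols. The authors deposited 1 file per library with whole-number read counts by gene symbol, used as raw counts. STAR 2.6.1a, mm10 and DESeq2 were used, per the submitters' processing notes; the sources used here give neither counting tool nor strand setting nor annotation. Entries for reads in no feature (9.19% to 30.5%) and ambiguous reads (1.73% to 2.6%) were left out.

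Counts were fitted in R 4.3.3 with edgeR 4.0.16: filter by group (12743 genes left), TMM scaling, 1 quasi-likelihood fit of 8 groups over 24 libraries, Benjamini-Hochberg adjustment over all genes tested, threshold 0.05. The standard error is the log2 fold change over the square root of F. Ratios were tested by exact permutation in Python 3.11.15 with scipy 1.17.1. Alternatives were library totals, RLE factors, no filter, DESeq2 1.42.0, voom of limma 3.58.1, only the compared groups, a replicate block and left-out libraries. Exon lengths and positions came from GENCODE M21, which matched 24490 of 24982 symbols (98%), and promoters from RefSeq (GRCm38.p6), which matched Epx and Prg3.

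The members and gene lists were chosen with earlier results of these data known. From each list, up to 4 tested genes with the smallest adjusted p in the comparison described are named, and all where a count is 5 or fewer, except 1 result that is not reported here; likeness names the top 5 genes with a group mean of at least 20 CPM. Same-numbered libraries deviated together (correlation over 0.1 for each of 3 numbers) between stages II and I and IV and III in steady state, and between II and I and III and II under IL-33. They did not between III and II in steady state (lowest 0.06), IV and III under IL-33 (lowest 0.05) or between conditions. The labels give the numbers only.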

Additional observations from a re-analysis of the deposited data

Results flagged for a closer look

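In 7 results the change between stages differed between IL-33 and steady state, by the test of that difference itself (edgeR, IL-33 step minus steady state step, log2). For stage III over II this was Epx, at 1.93. For stage IV over III it was Epx at 5.71, Prg2 at 4.40 and Prg3 at 4.11. For stage IV over I it was Epx at 7.83, Prg2 at 4.69 and Prg3 at 5.40 (adjusted p = 2e-11, 2.9e-07 and 8.76e-07), where 2.06% of genes were called higher. The steps of a condition share the libraries of the stage between them, so these values are not independent of each other.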

How the results depend on the processing

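For the 3 genes, 57 results were recomputed under 1821 alternatives. Of these, 1761 kept direction and side of the threshold, 5 lost the call, 18 gained it and 37 changed sign, the last in values that had not passed. Of 219 alternatives for the 21 ratio results, 213 kept both. All values here are log2, from edgeR unless named. Prg2 in steady state stage III against II was called with library totals (-0.79) and without the 4 steady state libraries numbered 3 (-0.74). Prg3 in IL-33 stage IV against III was called with library totals (-1.13), no filter (-0.90), DESeq2 (-0.87), limma-voom (-0.90), only the compared groups (-0.96), the replicate block (-0.89) and without the 4 (-0.83), and ranged from -1.05 to -0.79 without 1 library. The IL-33 minus steady state difference of Prg3 for stage III over II was called with library totals (1.61), limma-voom (1.37), the replicate block (1.39) and without the 4 (1.88), and ranged from 0.95 to 1.64 without 1 library. Epx in IL-33 stage IV against steady state stage III lost its call with only the compared groups (1.09). Prg3 under IL-33 against steady state in stage III ranged from 0.69 to 1.38 without 1 library. The ratio of Prg2 to Prg3 from stage II to III lost its call without the 4 (0.68) and without steady state library 1 or 2 of stage II (0.55), and ranged from 0.46 to 0.66 without 1 library. That of Prg2 to Epx from I to II ranged from 0.10 to 0.25, called at 0.25, and that of Prg3 to Epx from -0.11 to 0.08.

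Signs changed in values near 0. Prg2 in steady state stage II against I was -0.04 with library totals and -0.05 to 0.23 without 1 library. In IL-33 stage II against I, Epx was -0.13 to 0.16 and Prg2 -0.16 to 0.06 without 1 library. Prg2 in IL-33 stage III against II was 0.01 without the 4 and -0.03 to 0.03 without 1. Prg2 under IL-33 against steady state in stage III was -0.12 to 0.20 without 1. The difference of the step from stage I to II was 0.03 with library totals and -0.27 to 0.02 without 1 library for Prg2, and for Prg3 -0.05 with RLE factors, -0.05 in DESeq2, -0.04 with only the compared groups, -0.09 without the 4 and -0.16 to 0.18 without 1. Epx in IL-33 stage III against steady state stage II was -0.05 without the 4. In IL-33 stage IV against steady state stage III, Prg2 was 0.03 with library totals, 0.02 in limma-voom, 0.01 with the replicate block, 0.15 without the 4 and -0.21 to 0.11 without 1, and Prg3 -0.20 to 0.49 without 1. The cause was not tested. The replicate block changed no other call. Library totals moved the median of all genes by -0.33 in steady state stage III against II and -0.21 in IL-33 stage IV against III.

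Counts of called genes over all genes moved by over 1.5 times in some fits. With only the compared groups, 1965 genes were called in steady state stage III against II (4405 in all 8 groups) and 245 in stage IV against III (1176), and the replicate block gave 1755 in the last. Fits of only the compared groups also called 21 genes in steady state stage II against I (620 in all 8 groups). In IL-33 stage III against II they called 678 (11 in all 8 groups). The lists gave the same count within 1.5 times in 557 of 650 alternatives. Pools of 3 mice, 3 libraries a group and 12743 genes tested limit the precision; Epx in steady state stage IV rests on 193 to 233 reads a library, and coding length in place of exon length was chosen after the data were seen.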
